A study of Mus musculus with 24 samples.

Results

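The comparison described here is between colon epithelial cells of mice that carry the caNrf2 transgene and the same cells of control mice, neither given dextran sulfate sodium (DSS). Its libraries were chosen by their titles, 4 of transgenic and 4 of control epithelial cells, out of 24 RNA sequencing libraries in the series. The other libraries, of whole colon wall with and without DSS, were used only to check the cell type. All mice were of strain C57Bl/6. Control mice had the genotype VilCre and transgenic mice the genotype VilCre-CMVcaNrf2, so both groups carry a Cre recombinase driven by the villin promoter, which is active in the epithelium of the gut, and the groups differ in the transgene. The treatment of all 8 samples is given as none. No source used here gives the age or sex of the mice, the hour at which they were sampled or the method of cell separation. The series' design text speaks of triplicates, while the labels give 4 libraries a group. No label says that the libraries of a group came from separate animals, so the p-values below reflect variation among these samples, which may in part be technical.

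As background, NRF2, the product of Nfe2l2, is a transcription factor of the response to electrophiles and oxidants. In unstressed cells KEAP1 holds it for ubiquitination by a CUL3 ligase and degradation by the proteasome. NRF2 that escapes KEAP1 binds antioxidant response elements together with a small MAF protein, while BACH1 competes for these elements. Its textbook targets make glutathione, conjugate it to foreign compounds, reduce quinones and carbonyls, break down heme, store iron, produce NADPH and export conjugates. A constitutively active form, as caNrf2 is named, is a way to drive these targets without a stressor.

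The letters that NRF2 with a small MAF protein is known to bind were looked for in the RefSeq promoter windows of GRCm38.p6, the assembly that mm10 names. Each window runs from 250 bases before to 50 bases after a start site. The core searched was TGACNNNGC on either strand; where its variable letters make TGACTCAGC the match also holds TGACTCA, a site of AP-1. Matches that begin upstream of the start site are printed below in lower case, 5′ to 3′ along the gene's own strand, with the core in capitals. They are those of all 7 members of the NRF2 target lists that rose in the 6 libraries defined below and have such a match, and that of the metallothionein Mt2. Distances are counted from the first base of the core. A core in the opposite direction begins with GC and ends with GTCA.
Gsta3, chr1:21240452-21240484, plus strand, 121 bases before the start site: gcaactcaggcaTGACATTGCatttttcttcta
Gclm, chr3:122245411-122245443, plus strand, 134 bases before the start site: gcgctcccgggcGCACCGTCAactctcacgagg
Me1, chr9:86695900-86695932, minus strand, from 6 bases before the start site and running across it: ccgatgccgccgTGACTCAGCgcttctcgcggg
Ugdh, chr5:65435954-65435986, minus strand, 132 bases before the start site: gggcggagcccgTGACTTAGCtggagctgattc
Ugdh, chr5:65435916-65435948, minus strand, 94 bases before the start site: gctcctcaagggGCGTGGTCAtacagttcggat
Abcc4, chr14:118676934-118676966, minus strand, 23 bases before a start site: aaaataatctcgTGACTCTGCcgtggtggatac
Abcc4, chr14:118706224-118706256, minus strand, 25 bases before another start site: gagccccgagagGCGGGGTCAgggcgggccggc
Abcc10, chr17:46328206-46328238, minus strand, 203 bases before a start site: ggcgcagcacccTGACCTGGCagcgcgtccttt
Sod1, chr16:90220694-90220726, plus strand, 56 bases before the start site: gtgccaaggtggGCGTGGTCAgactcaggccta
Mt2, chr8:94172527-94172559, plus strand, 79 bases before the start site: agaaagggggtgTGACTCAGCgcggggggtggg

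Of all 32851 windows, 4071 (12.4%) held the core. Per gene, over genes with a window, it was 1604 of 9255 genes tested (17.3%). The tested members of the 8 NRF2 target lists described below held it in 23 of 99 cases (23.2%). Of those that rose in the 6 libraries defined below, 9 of 30 held it. Over all genes that passed there it was 51 of 284 higher genes (18%) and 75 of 336 lower genes (22.3%). A match of letters is a description and not a measured site, and windows this short leave out distal elements.

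Library totals ran from 6683785 to 15399870 counts. Values are CPM (counts scaled to library size), scaled by edgeR's TMM factors, and are given in the order of libraries 1 to 4 of each group. The label of epithelial cells was checked against the untreated colon wall on a common scale. Epcam, an adhesion protein of epithelia, was at 1040 to 1850 CPM in the epithelial libraries and 1510 to 2420 CPM in the wall, so it was not enriched. Other epithelial markers went both ways. Cdx2 was at 146 to 405 CPM against 13.3 to 53.7 CPM in the wall, and the goblet marker Fcgbp at 6530 to 13000 CPM against 1520 to 2680 CPM. Of the absorptive colonocyte markers, Car4 was at 46.2 to 532 CPM against 998 to 2400 CPM. Slc26a3, Aqp8 and Slc20a1 also stayed below the wall, while others, such as Krt20, overlapped it. Des, the muscle filament desmin, was at 1.04 to 9.77 CPM against 1600 to 2370 CPM, and Lum, a matrix protein of fibroblasts, at 0 to 3.72 CPM against 23.1 to 38.1 CPM. Pecam1, of endothelium, was at 5.19 to 23.4 CPM against 32.3 to 50.6 CPM, and Cdh5, Flt1 and Eng also stayed below the wall. The other endothelial markers listed reached the wall's range at their highest. Plvap was at 1.12 to 52.5 CPM against 34.9 to 50.5 CPM, and Kdr at 0 to 14.6 CPM against 5.86 to 9.71 CPM. Endothelial transcripts were thus less depleted than those of muscle, and by most of these markers not depleted in every library. Within the comparison itself, the summed CPM of the 12 endothelial markers was 10.1 to 87.6 in controls and 14.8 to 171 in transgenic libraries. The 10 fibroblast markers summed to 15.9 to 278.5 and 37.2 to 246, the 8 smooth muscle markers to 14.3 to 59.5 and 16.2 to 91.6. The 9 macrophage and monocyte markers found in the files summed to 8.81 to 57.5 and 12.8 to 48.6, the 8 B and plasma cell markers to 5.24 to 221 and 13.4 to 92.2. The neutrophil granule genes Ngp and Camp were at 0 in all 8. The part of these cell types in the results was not tested.

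Control 3 and transgenic 1 stood apart from the other 6 libraries in their markers of colonocyte maturity. Car1, the carbonic anhydrase of surface colonocytes, was at 444, 532, 16500 and 980 CPM in controls and 18750, 3320, 899 and 2151 CPM in transgenic libraries. Krt20, a keratin of mature colonocytes, was at 182, 225, 1708 and 239.7 CPM in controls and 1758, 357, 104 and 391 CPM in transgenic libraries. In both genes these libraries were the highest of their groups by far. A score, the mean of log2(CPM + 1) over the tested members of a list, was 9.31 in both for absorptive colonocytes and 6.28 to 7.70 in the others. For crypt stem cell and Wnt target genes it was 4.67 in both against 5.65 to 5.87, and for immediate early and heat shock genes 5.65 and 5.31 against 7.33 to 7.77. Their endothelial scores were 0.629 and 0.881 against 2.26 to 3.63. On the first principal component, with 51.5% of the variance, they lay at 62.9 and 62.7 and the others between -38.6 and -1.74. In bulk RNA, fewer cells of a type and less RNA per cell cannot be told apart. Since 1 such library falls in each group, results are given for all 8 libraries and for the 6 without these. The 6 still differed in the absorptive colonocyte score. It was 6.65, 6.69 and 7.14 in controls 1, 2 and 4 and 7.70, 6.28 and 7.48 in transgenic 2, 3 and 4. The median log2 fold change of that list was 0.10 in 8 libraries and 0.42 in the 6. The part of this difference in the calls on 6 libraries was not tested. Transgenic 3, which stays among the 6, stood apart on the second component, with 21% of the variance, at -54.2 against -7.88 to 23.8 in the others. Its voom quality weight was 0.283, near the 0.206 and 0.293 of control 3 and transgenic 1 and below the 1.17 to 3.32 of the rest.

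**Figure D1:**
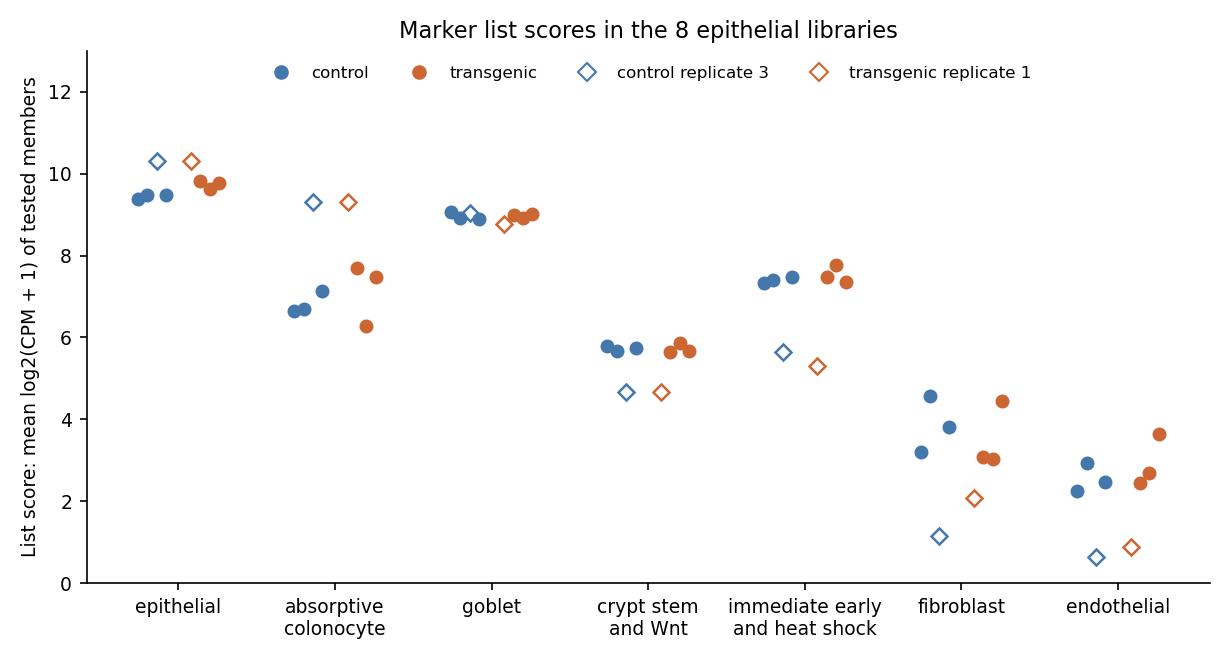
Scores of cell type and state marker lists (mean log2(CPM + 1) of tested members, y axis) in each of the 4 control and 4 transgenic epithelial libraries (points). Control 3 and transgenic 1 lie at 9.31 for absorptive colonocytes, above the 6.28 to 7.70 of the others, and at 0.629 and 0.881 for endothelial cells, below the 2.26 to 3.63 of the others.

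The targeted gene was examined first. Nfe2l2 (chromosome 2, 75675519 to 75704641, minus strand, mm10) was at 139, 160.2, 203 and 169 CPM in controls and 370.1, 344, 292 and 231 CPM in transgenic libraries. Every transgenic library was above every control library, with transgenic 4 nearest to the controls and transgenic 1 highest. The difference of mean log2(CPM + 1) was 0.869 with a two-sided exact permutation p of 0.0286, the smallest that 4 against 4 libraries allow. The fitted log2 fold change was 0.88 ± 0.19 (SE), and it was 0.89 ± 0.15 in the 6 libraries. No source used here says whether transgene reads were assigned to Nfe2l2, so this is a check of the labels and not a measure of the endogenous gene.

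Across the genome, no single gene passed when all 8 libraries were fitted together, and 835 genes passed without control 3 and transgenic 1. With 8 libraries edgeR's quasi-likelihood test called 0 of 12941 genes at an adjusted p of 0.05 (0%). The smallest adjusted p of edgeR was 0.219, and 1344 genes (10.4%) were below 0.05 before adjustment. On the same 8 libraries DESeq2 called 80 genes higher (0.618%) and 135 lower (1.04%), and voom with quality weights called 1292 genes. The values of the 4 transgenic libraries lay wholly above those of the 4 controls for 358 genes (2.77%) and wholly below for 581 (4.49%), 939 in either direction (7.26%). The median log2 fold change of all genes was 0.00022. In the 6 libraries, edgeR called 381 of 12994 genes higher (2.93%) and 454 lower (3.49%). A term that marks control 3 and transgenic 1, with all 8 libraries kept, gave 251 higher (1.94%) and 352 lower (2.72%), and 506 of these 603 genes were among the 835 of the 6 libraries. Without transgenic 3 as well, in 5 libraries, edgeR called 923 genes higher and 1002 lower, and all 835 were among them with the same sign. The 5 libraries are part of the 6, and the fit with the term holds all of the 6. These overlaps are therefore no separate support. The common biological coefficient of variation was 0.364 with 8 libraries, 0.231 with 6 and 0.219 with the term. Below, "passed" and "rose" or "fell" refer to the test on 6 libraries unless another is named.

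The NRF2 response is described first. Of 121 tested members of the 8 target lists, 33 rose in the 6 libraries and 1, Txnip, fell, against 2.93% and 3.49% of all genes. In the 5 libraries without transgenic 3 it was 63 and 2, where 923 of all 13238 genes tested were called higher and 1002 lower. Most genes that passed were thus in none of these lists. These lists are gene families by function that hold textbook targets along with other members. The count is thus not the share of established NRF2 targets that rose. The lists were chosen with earlier results of these data known, so their direction is not independent evidence.

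Among NRF2, its regulators and partners, Nfe2l2 rose and Cul3 fell, against 2.93% and 3.49% of all genes. The other 12 of 14 tested members did not pass. Keap1, the adaptor that targets NRF2 for degradation, was at 58.8, 59.9, 87.4 and 72 CPM in controls and 105, 99.5, 84.2 and 82.6 CPM in transgenic libraries, and control 3 overlapped the transgenic range. Its log2 fold change was 0.48 ± 0.13 in the 6 libraries (edgeR, adjusted p = 0.0541) and it passed with the 2-level term (edgeR, adjusted p = 0.0498). Cul3, the scaffold of the ligase that KEAP1 works with, was at 105, 96.9, 102 and 101 CPM in controls and 88.2, 61.5, 67.8 and 79.5 CPM in transgenic libraries. All 4 transgenic libraries were below all controls, and Cul3 fell by 0.54 ± 0.12 log2 units (edgeR, adjusted p = 0.0325). Mafg, a small MAF partner of NRF2, was at 29.3, 28.6, 20.3 and 27.8 CPM in controls and 37.4, 50.8, 34.9 and 31.4 CPM in transgenic libraries, with the groups apart. It did not pass in the 6 libraries, where its log2 fold change was 0.45 ± 0.18 (edgeR, adjusted p = 0.176).

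In glutathione synthesis and cystine import, 12 of 14 tested genes had a fitted log2 fold change above 0 in 8 libraries, with a median of 0.42, against 50.1% of all genes and a median of 0.00022. The genes Slc7a11, Gclc, Gclm and Gss rose, against 2.93% of all genes. The groups did not overlap for 3 genes of the list, all higher, against 2.77% of all genes. Slc7a11, the cystine and glutamate exchanger (chromosome 3, 50364936 to 50443613), was at 9.09, 8.85, 1.33 and 6.71 CPM in controls and 45.3, 49.1, 30.2 and 19.8 CPM in transgenic libraries. Control 3 had the lowest value, and every transgenic library lay above every control. Its log2 fold change was 2.48 ± 0.53 with 8 libraries and 1.99 ± 0.32 with 6 (edgeR, adjusted p = 0.0146). Gclc, the catalytic subunit of glutamate-cysteine ligase, was at 93.3, 86.8, 152 and 115 CPM in controls and 739, 459, 232 and 188 CPM in transgenic libraries. Here the transgenic libraries spread widely, with transgenic 1 and 2 at the top, and none reached down to the controls. Gclc rose by 1.57 ± 0.29 log2 units (edgeR, adjusted p = 0.021). Gclm, the modifier subunit of the same enzyme, was at 65.6, 61.5, 101 and 70.6 CPM in controls and 272, 186, 126 and 82.7 CPM in transgenic libraries, so transgenic 4 lay below control 3. It rose by 0.996 ± 0.24 (edgeR, adjusted p = 0.0424), and its promoter window holds 1 of the cores printed above. Gss, glutathione synthetase, rose by 0.71 ± 0.17 (edgeR, adjusted p = 0.0427). Gsr, which regenerates glutathione from its oxidised form, was at 133, 126, 148 and 124 CPM in controls and 262, 232, 165 and 148 CPM in transgenic libraries, with transgenic 4 equal to control 3 within 1 CPM, and did not pass. By the authors' TPM, which are scaled by transcript length, the most abundant member was the glutathione peroxidase Gpx2, with group means of 1680 and 2150 TPM in control and transgenic libraries.

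Glutathione transferases, which attach glutathione to electrophiles, were fitted above 0 for 19 of 21 tested genes (median 0.41). Of the 21, 7 rose, against 2.93% of all genes. The groups of 4 did not overlap for 2 genes, Gstm1 and Gsta3, both higher, against 2.77% of all genes. Gstm1, a mu class enzyme, was at 291, 286, 354 and 284 CPM in controls and 1297, 925, 826 and 448 CPM in transgenic libraries. The controls were close together and the transgenic libraries ran from 448 to 1297 CPM. It rose by 1.35 ± 0.22 log2 units (edgeR, adjusted p = 0.0157), with 1.52 ± 0.28 in 8 libraries. Gsta3, an alpha class enzyme, was at 16.8, 14.5, 12.3 and 22.2 CPM in controls and 86.1, 73.4, 52.3 and 28.5 CPM in transgenic libraries and rose by 1.54 ± 0.31 (edgeR, adjusted p = 0.0255). Gsta1, of the same class, was at 7.9, 13.1, 54.4 and 9.44 CPM in controls and 210.4, 56.7, 39.8 and 44.2 CPM in transgenic libraries. In each group the library that stands apart was the highest, so that control 3 exceeded transgenic 3 and transgenic 4. Without these libraries Gsta1 rose by 2.20 ± 0.22 (edgeR, adjusted p = 0.00685). Gsta2, its close relative, did not pass the filter on low counts, and reads could be split between the 2 genes. Gstm3 was at 34.1, 33.5, 91 and 36.3 CPM in controls and 285, 126, 95.3 and 74.4 CPM in transgenic libraries and rose by 1.51 ± 0.18 (edgeR, adjusted p = 0.00907). Again control 3 was the highest control. Gstp1 and Gstp2, pi class enzymes that lie side by side in the mouse and can share reads, rose by 0.89 ± 0.11 and 1.59 ± 0.28 (edgeR, adjusted p = 0.00919 and 0.0183), and Mgst3, a membrane-bound enzyme, by 0.82 ± 0.16 (edgeR, adjusted p = 0.0255). Per length, Gstp1 was the most abundant in controls, at a mean of 714 TPM against 1250 TPM in transgenic libraries. Gstm1 had means of 432 and 1190 TPM, so in transgenic libraries it was close to Gstp1.

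Quinone and carbonyl reductases were fitted above 0 for 16 of 17 tested genes, with the highest median of the 8 lists, 0.61. In the 6 libraries 7 rose, against 2.93% of all genes. Nqo1, the quinone reductase often used as a reporter of NRF2, was at 29.9, 38.6, 91.7 and 41.1 CPM in controls and 231, 107, 68.5 and 71.1 CPM in transgenic libraries. Control 3 lay above transgenic 3 and 4, and the test of 8 libraries gave 1.25 ± 0.47 without a call. In the 6 libraries Nqo1 rose by 1.17 ± 0.20 (edgeR, adjusted p = 0.0163). Cbr3, a carbonyl reductase, was at 22.8, 24.2, 55.9 and 31.9 CPM in controls and 270.1, 169.5, 117 and 60.2 CPM in transgenic libraries. Its groups did not overlap, and it rose by 2.15 ± 0.32 (edgeR, adjusted p = 0.0129), more than any other member of the list that passed. Its paralog Cbr1 rose by 1.07 ± 0.16 (edgeR, adjusted p = 0.0123). Akr1b8, an aldo-keto reductase of aldehydes, was at 49.2, 54.3, 132 and 59.8 CPM in controls and 380.2, 199, 98.3 and 122 CPM in transgenic libraries and rose by 1.36 ± 0.23 (edgeR, adjusted p = 0.0164). The secreted proteoglycan Tsku (tsukushi), which is no reductase, the aldo-keto reductase Akr1c19 and the retinaldehyde dehydrogenase Aldh1a1 also rose, by 1.24 ± 0.25, 0.92 ± 0.21 and 1.39 ± 0.22 (edgeR, adjusted p = 0.0255, 0.0372 and 0.0154). Aldh1a1 was at 31.4, 40.4, 448 and 47 CPM in controls and 712, 140.2, 79.2 and 91 CPM in transgenic libraries, so the library that stands apart exceeded the rest of its group several-fold in both groups. Aox1, an aldehyde oxidase, was at 0.425, 0.487, 0 and 0 CPM in controls and 1.16, 4.55, 2.13 and 0.856 CPM in transgenic libraries and was too low to be tested in the 6 libraries.

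**Figure D2:**
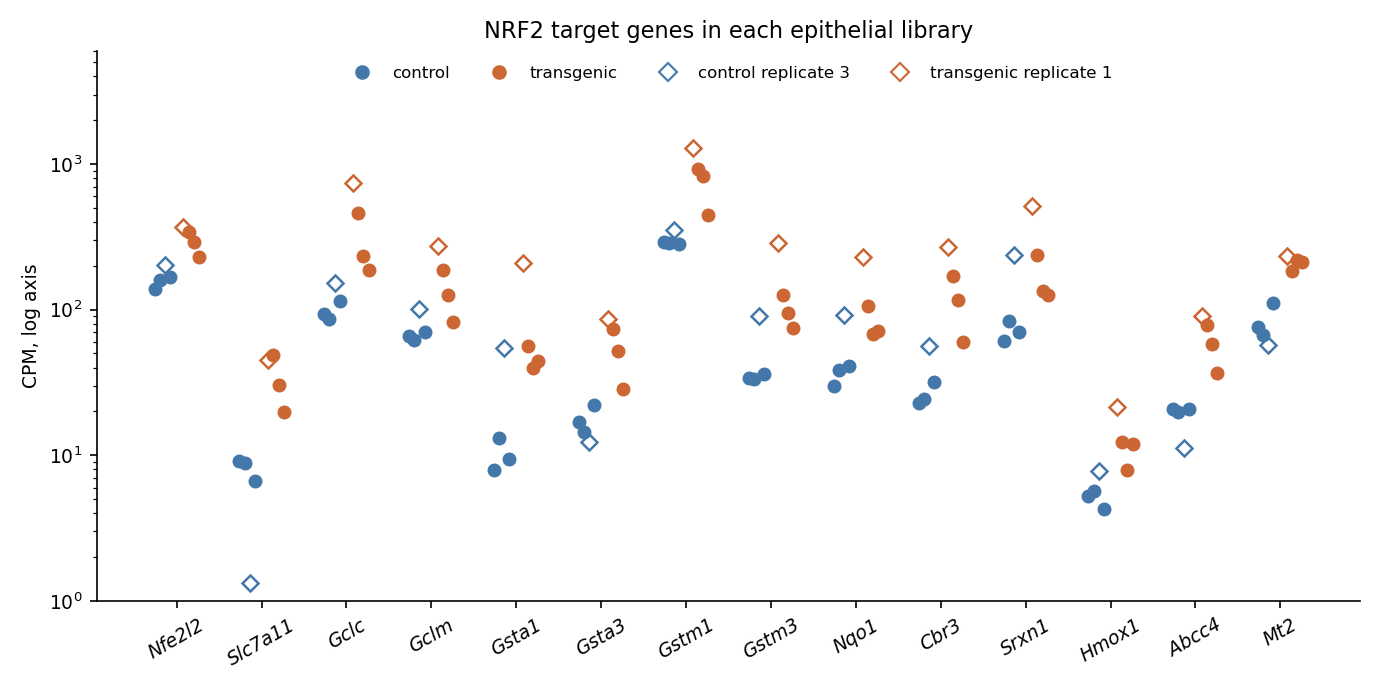
CPM on a log scale (y axis) of Nfe2l2 and NRF2 target genes in each of the 4 control and 4 transgenic libraries (points), with control 3 and transgenic 1 marked. For Nfe2l2, Slc7a11, Gclc, Gstm1, Gsta3 and Cbr3 all transgenic points lie above all control points, while for Nqo1 control 3 (91.7 CPM) lies above transgenic 3 (68.5 CPM).

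In the thioredoxin and peroxiredoxin system, 14 of 15 tested genes were fitted above 0 (median 0.25). Srxn1, Cat and Sod1 passed upward and Txnip downward, against 2.93% and 3.49% of all genes. Srxn1, which repairs overoxidised peroxiredoxins, was at 61.2, 84.1, 237 and 70.1 CPM in controls and 512, 238, 135 and 127 CPM in transgenic libraries. Control 3 lay within the transgenic range, and without it and transgenic 1 Srxn1 rose by 1.21 ± 0.23 (edgeR, adjusted p = 0.023). Catalase, Cat, was at 80, 88.4, 125 and 83.1 CPM in controls and 277, 173, 151 and 95.5 CPM in transgenic libraries and rose by 0.73 ± 0.19 (edgeR, adjusted p = 0.0492). Txnrd1, the cytosolic thioredoxin reductase, was at 250.4, 271, 338 and 264 CPM in controls and 561, 410.5, 365 and 302 CPM in transgenic libraries, and its log2 fold change of 0.45 ± 0.12 in the 6 libraries did not pass (edgeR, adjusted p = 0.053). Txnip, which binds and inhibits thioredoxin, was at 1441, 1500, 1784 and 1424 CPM in controls and 1212, 1055, 1146 and 1195 CPM in transgenic libraries. All transgenic libraries were below all controls, and it fell by 0.37 ± 0.09 (edgeR, adjusted p = 0.0409).

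Of 11 tested genes of heme breakdown and iron handling, 9 were fitted above 0 (median 0.31). Ftl1, the ferritin light chain, was at 1098, 1034, 2181 and 1171 CPM in controls and 3913, 2462, 2028 and 1818 CPM in transgenic libraries and rose by 0.93 ± 0.12 (edgeR, adjusted p = 0.00919). By TPM it had group means of 2600 and 4760, and Fth1, the heavy chain, which did not pass, of 2920 and 3490. Hmox1, heme oxygenase, was low but apart between the groups, at 5.27, 5.68, 7.81 and 4.24 CPM in controls and 21.4, 12.3, 7.98 and 12 CPM in transgenic libraries. Its change of 1.07 ± 0.31 in the 6 libraries did not pass (edgeR, adjusted p = 0.0709), and it passed with the 2-level term (edgeR, adjusted p = 0.025). Blvrb, a biliverdin reductase, rose by 1.28 ± 0.28, and Abcb6, a porphyrin transporter, by 0.91 ± 0.20 (edgeR, adjusted p = 0.0329 and 0.0326).

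NADPH, the reductant of glutathione reductase and thioredoxin reductase, is produced by enzymes of which 10 of 11 were fitted above 0 (median 0.35). Tkt, transketolase, was at 489, 479, 693 and 467 CPM in controls and 1062, 745, 679.8 and 630.2 CPM in transgenic libraries and rose by 0.51 ± 0.09 (edgeR, adjusted p = 0.0208). Taldo1, transaldolase, rose by 0.56 ± 0.10 (edgeR, adjusted p = 0.0183). Me1, the malic enzyme, was at 40.3, 55.5, 83.8 and 61.6 CPM in controls and 110.2, 88.3, 82.5 and 73 CPM in transgenic libraries and rose by 0.63 ± 0.16 (edgeR, adjusted p = 0.0498), just inside the threshold. G6pdx, the first enzyme of the pentose phosphate pathway, was at 74.8, 82.8, 113 and 69.1 CPM in controls and 129, 105, 101 and 83.2 CPM in transgenic libraries, with control 3 inside the transgenic range, and did not pass. Pgd, the next dehydrogenase, was at 219, 212, 318 and 231 CPM in controls and 701, 412, 249 and 276 CPM in transgenic libraries and did not pass either. Idh1, the cytosolic isocitrate dehydrogenase, had separate groups, at 213, 229.6, 231 and 247 CPM in controls and 272, 315, 308 and 275 CPM in transgenic libraries, and missed the threshold (edgeR, adjusted p = 0.0542).

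Drug conjugation and hydrolysis was the least uniform of the 8 lists, with 15 of 22 tested genes fitted above 0 and a median of 0.09. The carboxylesterase Ces1g was at 27.5, 31.4, 249.8 and 42.8 CPM in controls and 563, 137, 82.6 and 78.7 CPM in transgenic libraries and rose by 1.56 ± 0.24 (edgeR, adjusted p = 0.013). Ces1f, of the same gene cluster, rose by 1.28 ± 0.23, and Ugdh, which makes the UDP-glucuronate used for conjugation, by 0.91 ± 0.21 (edgeR, adjusted p = 0.0194 and 0.0347). The list's score was 8.02 in control 3 and 8.04 in transgenic 1 against 5.6 to 6.6 in the others. The part of colonocyte maturity in these values was not tested, and reads of the neighbouring carboxylesterase genes can be shared.

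Among efflux pumps, 9 of 10 tested genes were fitted above 0 (median 0.51), and Abcc4, Abcc3 and Abcc10 rose, against 2.93% of all genes. Abcc4 (MRP4) was at 20.9, 19.9, 11.1 and 20.9 CPM in controls and 91, 78.5, 58.3 and 36.7 CPM in transgenic libraries. The lowest transgenic value lay above all controls, and Abcc4 rose by 1.49 ± 0.24 (edgeR, adjusted p = 0.0153), with 1.86 ± 0.31 in 8 libraries. Abcc3, which exports glucuronides, was at 142, 157, 683 and 174 CPM in controls and 861, 381, 218 and 254 CPM in transgenic libraries and rose by 0.85 ± 0.19 (edgeR, adjusted p = 0.0338). Abcc2, the apical exporter of glutathione conjugates, was near the limit of detection at 0.34, 0.569, 1.33 and 0.821 CPM in controls and 5.41, 1.42, 0 and 0 CPM in transgenic libraries. Transgenic 3 and 4 held no count and transgenic 2 was near the highest control, and it was not tested in the 6 libraries.

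Metallothioneins, which bind zinc and copper and scavenge oxidants, were not among the 8 target lists. Mt2 was at 75.8, 66.7, 56.8 and 110.3 CPM in controls and 235, 183, 219 and 212 CPM in transgenic libraries. The groups were far apart and the 4 transgenic libraries differed little from each other. With 8 libraries its log2 fold change was 1.46 ± 0.21, and it rose by 1.28 ± 0.17 in 6 (edgeR, adjusted p = 0.0105). Mt1 was at 316, 283, 437 and 392 CPM in controls and 685, 491, 431 and 485 CPM in transgenic libraries and rose by 0.50 ± 0.13 (edgeR, adjusted p = 0.0492). Mtf1, the zinc sensor that activates both genes, was at 16.3, 14.9, 20.4 and 17.7 CPM in controls and 25.4, 25.8, 22.6 and 21.2 CPM in transgenic libraries, with the groups apart, and did not pass. In all, 6 of 8 genes of this list were fitted above 0 (median 0.40), and 2 rose, against 2.93% of all genes.

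**Figure D3:**
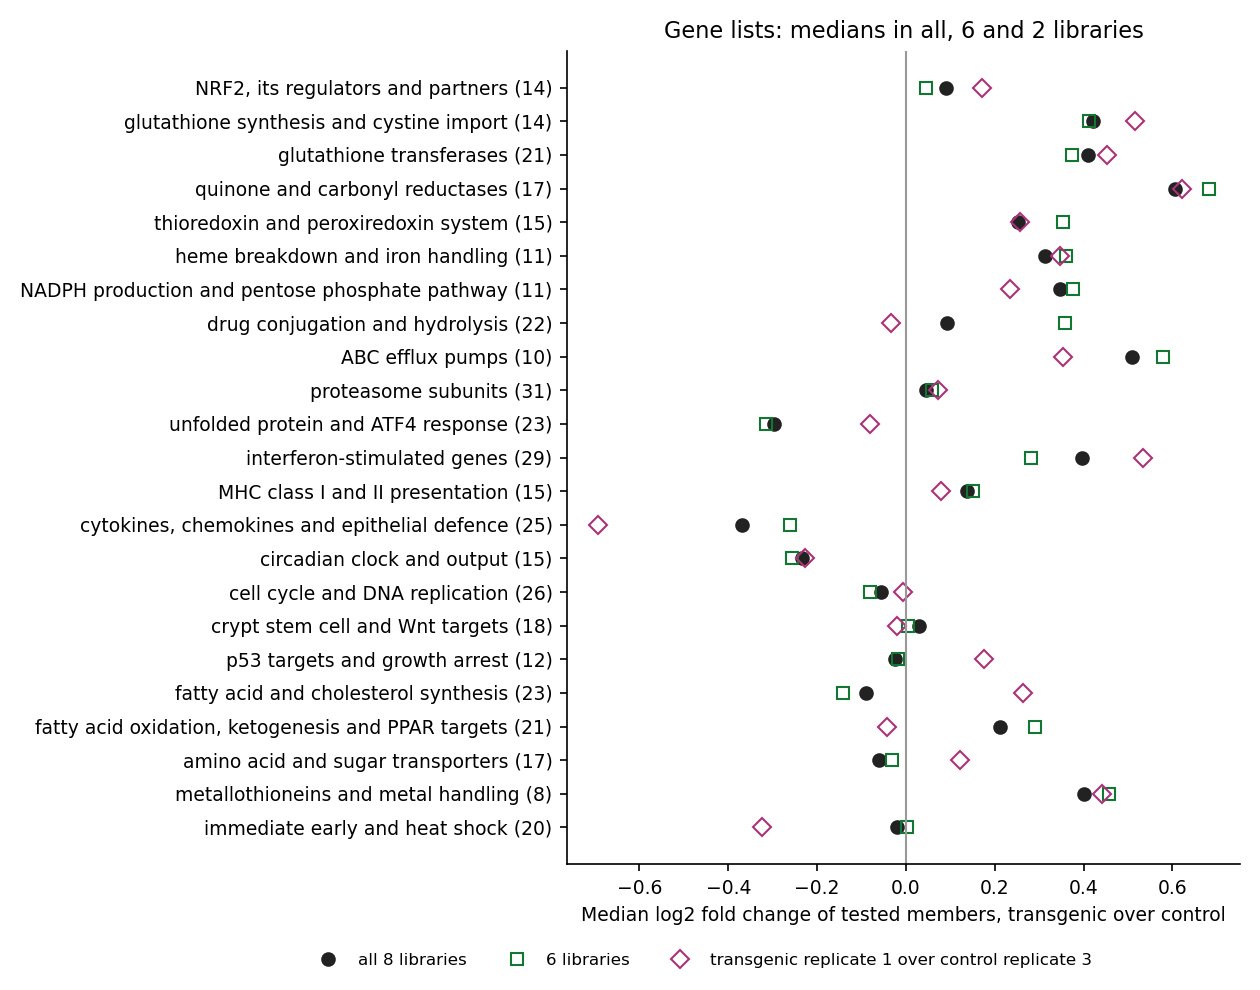
Median log2 fold change, transgenic over control (x axis), of the tested members of each pathway list (y axis), in all 8 libraries, in the 6 without control 3 and transgenic 1, and as the ratio of transgenic 1 to control 3, with the number of members tested in brackets and a line at the median of all genes. Quinone and carbonyl reductases have the highest median in 8 libraries, 0.61, and cytokines, chemokines and epithelial defence the lowest of the pathway lists, -0.37.

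The response to unfolded proteins and the ATF4 pathway moved in both directions. Of 23 tested genes 9 were fitted above 0 (median -0.30). The groups did not overlap for 6 lower genes and 1 higher gene, against 4.49% and 2.77% of all genes. In the 6 libraries 5 fell and 3 rose, against 3.49% and 2.93% of all genes. Those that fell are chaperones and folding factors of the endoplasmic reticulum and Herpud1, a component of the degradation pathway of that compartment. Hspa5 (BiP), the master chaperone of that compartment, was at 1257, 1273, 684 and 775 CPM in controls and 489, 508, 589.9 and 555 CPM in transgenic libraries. Controls 1 and 2 were well above controls 3 and 4, and all of them were above the transgenic libraries. It fell by 1.005 ± 0.17 (edgeR, adjusted p = 0.0175). Dnajb9, a co-chaperone of BiP, was at 54.3, 42, 34 and 37.5 CPM in controls and 23.7, 17.6, 25.9 and 16.8 CPM in transgenic libraries and fell by 1.15 ± 0.21 (edgeR, adjusted p = 0.02). Hsp90b1 fell by 0.80 ± 0.16, the disulfide isomerase Pdia4 by 0.79 ± 0.18 and Herpud1 by 0.62 ± 0.11 (edgeR, adjusted p = 0.0244, 0.0377 and 0.0208). The 3 genes that rose are known targets of ATF4. Sesn2, a sestrin that restrains mTORC1, was at 8.15, 7.72, 14.4 and 10.3 CPM in controls and 22.8, 17.1, 25.8 and 17.4 CPM in transgenic libraries and rose by 1.21 ± 0.25 (edgeR, adjusted p = 0.0261). Phgdh and Psat1, enzymes of serine synthesis, rose by 0.54 ± 0.11 and 0.68 ± 0.16 (edgeR, adjusted p = 0.0253 and 0.0405). Trib3, a pseudokinase induced by ATF4, was at 1.87, 2.6, 1.5 and 3.56 CPM in controls and 15.8, 8.62, 2.2 and 15.1 CPM in transgenic libraries, with transgenic 3 inside the control range, and did not pass.

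Clock genes also split. Of 15 tested, 4 were fitted above 0 (median -0.23), and 6 fell and 3 rose in the 6 libraries, so 9 of 15 passed against 6.43% of all genes. Arntl (BMAL1), the activator of the core loop, was at 32.5, 31.2, 39.5 and 27.8 CPM in controls and 25.2, 18.1, 15.3 and 14.6 CPM in transgenic libraries and fell by 0.94 ± 0.17 (edgeR, adjusted p = 0.0189). All transgenic values were below all control values. Its partner Npas2 fell by 0.78 ± 0.14 (edgeR, adjusted p = 0.0202). Nr1d1 (REV-ERB alpha), the repressor of Arntl, was at 259, 238, 255 and 223 CPM in controls and 143, 179.8, 176 and 165 CPM in transgenic libraries and fell by 0.47 ± 0.10 (edgeR, adjusted p = 0.0274). Nr1d2, Per1 and Nfil3 fell by 0.54 ± 0.13, 0.66 ± 0.17 and 1.23 ± 0.27 (edgeR, adjusted p = 0.0381, 0.0498 and 0.0302). Tef, a PAR bZIP output factor, was at 36.4, 34.8, 63.5 and 57.6 CPM in controls and 77.7, 82.5, 90.7 and 100.4 CPM in transgenic libraries and rose by 1.09 ± 0.19 (edgeR, adjusted p = 0.0176). Dbp, of the same family, was at 9.17, 8.53, 20.1 and 11.5 CPM in controls and 21.6, 20.7, 42.4 and 19 CPM in transgenic libraries, with control 3 inside the transgenic range, and rose by 1.498 ± 0.32 (edgeR, adjusted p = 0.0287). Per3 rose by 0.997 ± 0.21 (edgeR, adjusted p = 0.0284). Clock genes depend on the time of day, and no source used here says whether the groups were sampled at the same hour, so time and genotype cannot be told apart here.

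Of the interferon-stimulated genes Mx1 stood out. Mx1, an interferon-induced gene of a GTPase family (chromosome 16, 97447035 to 97462906, minus strand), was at 91.9, 107, 22.8 and 75 CPM in controls and 12.4, 15.2, 14.4 and 20.6 CPM in transgenic libraries. Even the lowest control, control 3, lay above the highest transgenic library. Mx1 fell by 2.47 ± 0.19 log2 units (edgeR, adjusted p = 0.00117), and by 2.25 ± 0.42 with 8 libraries. The rest of the list did not share this: 22 of 29 tested genes were fitted above 0 in 8 libraries (median 0.40). In the 6 libraries the median was 0.28, and 1 gene rose and 1 fell, against 2.93% and 3.49% of all genes. The list's score was 4.36 in control 3 and 4.83 in transgenic 1 against 2.94 to 3.58 in the others, and the part of what sets these libraries apart was not tested. Bst2 (tetherin) was the other gene that passed, at 8.58, 10.2, 14.7 and 8.21 CPM in controls and 19.9, 15.7, 17.6 and 16.3 CPM in transgenic libraries, and it rose by 0.87 ± 0.21 (edgeR, adjusted p = 0.0446). Irf9, a subunit of the interferon-activated factor ISGF3, was at 20.2, 21.8, 33.8 and 20.5 CPM in controls and 56.5, 25.3, 28.6 and 23.6 CPM in transgenic libraries and did not pass. In MHC presentation 11 of 15 tested genes were fitted above 0 (median 0.14), and H2-D1, a class I heavy chain, was at 466, 449, 938 and 415 CPM in controls and 990, 598, 514 and 508 CPM in transgenic libraries without passing.

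In cytokines, chemokines and epithelial defence, 5 of 25 tested genes were fitted above 0, with a median of -0.37. Nos2, inducible nitric oxide synthase, was low in all libraries, at 7.39, 9.91, 14.3 and 6.3 CPM in controls and 1.31, 0.663, 1.59 and 4.77 CPM in transgenic libraries. Transgenic 4 was nearest to the controls. Its groups did not overlap and its change of -2.21 ± 0.58 in 8 libraries was called by DESeq2 (adjusted p = 0.0162) and not by edgeR in 6 (adjusted p = 0.125). Nox1, the NADPH oxidase of colon epithelium, was at 90.1, 96, 28.1 and 67.6 CPM in controls and 16.5, 45.5, 45 and 41.5 CPM in transgenic libraries and fell by 0.95 ± 0.15 (edgeR, adjusted p = 0.013). Duoxa2, the maturation factor of the oxidase DUOX2, was at 17.3, 33.4, 64.8 and 18.5 CPM in controls and 23.4, 9, 9.12 and 15.5 CPM in transgenic libraries and did not pass. Cxcl2, a chemokine for neutrophils, was too low to be tested in 8 libraries. Its CPM was 2.80, 3.49, 0 and 1.09 in controls and 0.232, 0, 0 and 0 in transgenic libraries, so 3 of the latter and control 3 held no count.

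Cholesterol and fatty acid synthesis had 2 genes that rose and 4 that fell of 23 tested, against 2.93% and 3.49% of all genes, with a median of -0.09. Scd2, a fatty acid desaturase, was at 842, 663, 627 and 676 CPM in controls and 568, 258, 379 and 471 CPM in transgenic libraries, with the groups apart, and fell by 0.98 ± 0.20 (edgeR, adjusted p = 0.0254). The squalene epoxidase Sqle fell by 0.39 ± 0.09 (edgeR, adjusted p = 0.0415), while the log2 ratio of transgenic 1 to control 3 was 0.30. With the 2-level term the adjusted p of Scd2 and Sqle was 0.0504 and 0.339 (edgeR). In fatty acid oxidation and PPAR targets, 16 of 21 tested genes were fitted above 0 (median 0.21), and Acaa2, a thiolase, rose by 0.61 ± 0.13 (edgeR, adjusted p = 0.0329). Angptl4, a PPAR target that inhibits lipoprotein lipase, was at 1.78, 1.38, 1.25 and 2.6 CPM in controls and 5.26, 14.1, 2.73 and 4.28 CPM in transgenic libraries. Its groups did not overlap, and it did not pass in the 6 libraries.

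Cell cycle and DNA replication genes that passed all fell, 5 of 26 tested against 3.49% of all genes, while the median over the list was -0.06. Ccna2, cyclin A2, was at 109, 91.4, 89.1 and 101 CPM in controls and 64, 61.8, 64.5 and 82.2 CPM in transgenic libraries and fell by 0.54 ± 0.14 (edgeR, adjusted p = 0.0471). Pcna, the clamp of replication, was at 138, 141, 101 and 139 CPM in controls and 91.3, 91.6, 97.2 and 101 CPM in transgenic libraries and fell by 0.54 ± 0.09 (edgeR, adjusted p = 0.0172). Mki67, Rrm1 and Top2a fell by 0.56 ± 0.11, 0.53 ± 0.12 and 0.52 ± 0.12 (edgeR, adjusted p = 0.0234, 0.0365 and 0.0341). Mki67, the antigen of cycling cells, was at 385, 349.9, 200.5 and 390.2 CPM in controls and 192, 238, 241 and 289 CPM in transgenic libraries, so control 3 lay inside the transgenic range. Of 18 tested crypt stem cell and Wnt target genes only Ascl2 passed, against 6.43% of all genes. Ascl2, a factor of stem cells, was at 6.2, 4.95, 3.74 and 5.34 CPM in controls and 2.32, 11.5, 16.6 and 16.3 CPM in transgenic libraries. It rose by 1.42 ± 0.27 (edgeR, adjusted p = 0.0213), while transgenic 1 was below all controls. Lgr5, the stem cell receptor, was at 33.2, 35.1, 10.4 and 24.5 CPM in controls and 6.81, 22.1, 32.4 and 31.4 CPM in transgenic libraries and did not pass. In the marker list of deep crypt secretory cells, 2 of 7 tested genes were fitted above 0 (median -0.10). Both of these rose while Agr2 fell, against 2.93% and 3.49% of all genes. Dll1, a Notch ligand of secretory progenitors, was at 5.95, 6.58, 7.73 and 8.35 CPM in controls and 10.7, 16.8, 19.4 and 18.2 CPM in transgenic libraries, with the groups apart, and rose by 1.39 ± 0.23 (edgeR, adjusted p = 0.0162). Dll4, another Notch ligand, rose by 0.93 ± 0.21, and Agr2, a disulfide isomerase of mucus-secreting cells, fell by 0.52 ± 0.13 (edgeR, adjusted p = 0.0334 and 0.0436). Enteroendocrine markers were fitted below 0 for all 10 tested, with a median of -0.48. Gcg, which encodes proglucagon, was at 108, 80.7, 38.1 and 72.3 CPM in controls and 34.4, 28.9, 40.7 and 57.7 CPM in transgenic libraries and fell by 1.05 ± 0.24 (edgeR, adjusted p = 0.0365), and Pyy, peptide YY, was at 31.7, 27.4, 25 and 25.7 CPM in controls and 20.4, 14, 21.9 and 22.4 CPM in transgenic libraries without passing.

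The remaining lists had few calls. Of 31 proteasome subunits, 2 rose (Psmb3 and Psmb5) and 2 fell (Psma1 and Psma3), against 2.93% and 3.49% of all genes, with a median of 0.05. Psmb5, a catalytic subunit, was at 64.4, 68.8, 101 and 74.6 CPM in controls and 135, 102, 99.7 and 102 CPM in transgenic libraries and rose by 0.55 ± 0.10, while Psma3 fell by 0.75 ± 0.10 (edgeR, adjusted p = 0.0212 and 0.0114). Slc6a6, the taurine transporter, was at 243, 241, 296 and 277 CPM in controls and 427, 377, 377 and 368 CPM in transgenic libraries. Its groups did not overlap, and it rose by 0.55 ± 0.09 (edgeR, adjusted p = 0.0163), and Slc5a8, a carrier of short-chain fatty acids, fell by 0.75 ± 0.19 (edgeR, adjusted p = 0.0459). Of 12 p53 targets, Trp53inp1 alone passed, against 6.43% of all genes, and fell by 0.76 ± 0.13 (edgeR, adjusted p = 0.0163). Its log2 ratio of transgenic 1 to control 3 was 0.35, of the opposite sign. With the 2-level term it did not pass (edgeR, adjusted p = 0.15). Klf6 fell by 0.61 ± 0.09 and the heat shock gene Hspa1a rose by 2.48 ± 0.62 in the immediate early and heat shock list (edgeR, adjusted p = 0.013 and 0.0459). Hspa1a ran from 33.4 to 178 CPM in transgenic 2 to 4 and from 3.24 to 32.0 CPM in the controls, with 3.79 CPM in transgenic 1. Both libraries that stand apart were thus low in Hspa1a.

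Outside all lists, the genes named are the 12 higher and 12 lower ones with the smallest unadjusted p in 8 libraries among those whose groups did not overlap, so that the separation of their groups is part of the choice. All 24 passed in the 6 libraries, but these are part of the 8 used for the choice, so this is no separate support. Gba2, a glucosylceramidase outside the lysosome, was at 13.2, 14, 13.9 and 15.7 CPM in controls and 29.5, 32.5, 30.6 and 23 CPM in transgenic libraries and rose by 1.01 ± 0.19 (edgeR, adjusted p = 0.0216). Atf5, a bZIP factor of the ATF4 family, was at 10.1, 12.3, 16.6 and 17.9 CPM in controls and 29.9, 51.6, 36.5 and 42.5 CPM in transgenic libraries and rose by 1.70 ± 0.23 (edgeR, adjusted p = 0.0099). Eif4ebp1, the repressor of cap-dependent translation that mTORC1 phosphorylates, was at 27.6, 23.5, 26.5 and 30.1 CPM in controls and 50.4, 63, 40.8 and 43.4 CPM in transgenic libraries and rose by 0.86 ± 0.19 (edgeR, adjusted p = 0.0325). In each of these every transgenic library was above every control, as the rule of choice requires. Rep15, a partner of the small GTPase RAB15, was at 42, 42.7, 59 and 37.4 CPM in controls and 86.5, 108, 88 and 79.8 CPM in transgenic libraries and rose by 1.17 ± 0.14 (edgeR, adjusted p = 0.00907). Evx1, a homeobox gene, was low, at 2.63, 3.17, 2 and 2.46 CPM in controls and 5.34, 10.4, 9.19 and 7.71 CPM in transgenic libraries. Mepce, Tmppe, Klhdc5, Ppp1r10, Ovol1, Rnmtl1 and Zscan29 rose by 0.59 to 1.21.

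Of the lower genes outside the lists, Fam46a, a terminal nucleotidyltransferase of messenger RNA, was at 130.4, 143, 128 and 130.2 CPM in controls and 79.9, 74.2, 66.3 and 62.9 CPM in transgenic libraries and fell by 0.99 ± 0.11 (edgeR, adjusted p = 0.00795). Suz12, a core subunit of the Polycomb complex PRC2, was at 68.6, 66.1, 57.4 and 74.2 CPM in controls and 33.3, 35, 38 and 34.5 CPM in transgenic libraries. It fell by 0.96 ± 0.12 (edgeR, adjusted p = 0.00907), and both groups were tight. Tug1, a long noncoding RNA, was at 103, 93.5, 94.2 and 98 CPM in controls and 67.8, 57.3, 52.9 and 54.3 CPM in transgenic libraries and fell by 0.85 ± 0.10 (edgeR, adjusted p = 0.00907). Far1, which reduces fatty acids to alcohols for ether lipids, was at 136, 138, 100.1 and 115 CPM in controls and 81.1, 73.3, 62 and 64.7 CPM in transgenic libraries and fell by 0.96 ± 0.12 (edgeR, adjusted p = 0.00907). Klf9, a Krüppel-like factor, was at 119, 111, 96.3 and 96.2 CPM in controls and 70, 62.7, 70.7 and 65.8 CPM in transgenic libraries and fell by 0.72 ± 0.12 (edgeR, adjusted p = 0.0147). By the rule of choice, these reductions were seen in every transgenic library. Clec2e, A930001N09Rik, Capn7, Fam135a, Spats2l and Guf1 fell as well, with log2 fold changes of -1.33 to -0.70. Rpl34, a ribosomal protein gene, was at 150, 145, 79.5 and 173 CPM in controls and 28.4, 29.3, 57 and 41.8 CPM in transgenic libraries, and its processed copy Rpl34-ps1 was at 195, 215, 309.9 and 188 CPM in controls and 371, 369.6, 381 and 413 CPM in transgenic libraries. Their sums were 345, 359.9, 389 and 360.4 CPM against 399.5, 398.9, 438 and 455 CPM. Since reads of near-identical copies can be split in either way, the change of Rpl34 is uncertain.

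**Figure D4:**
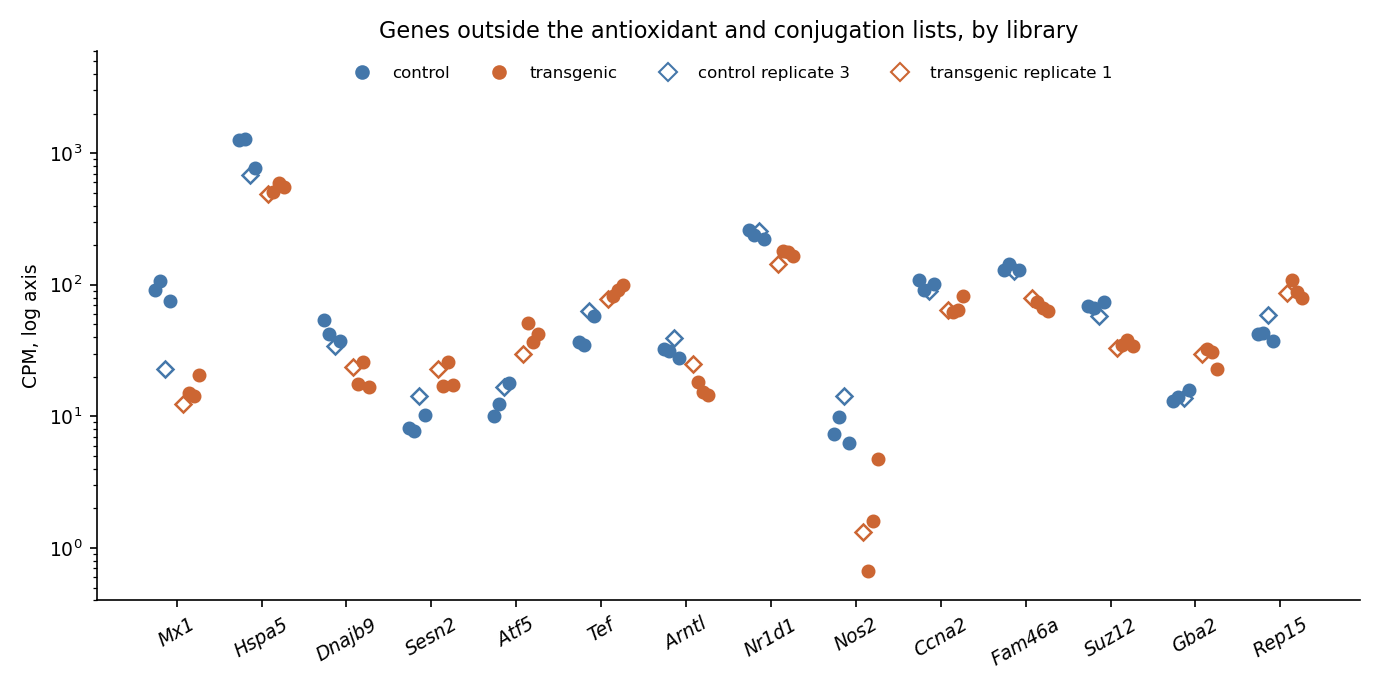
CPM (y axis, log scale) of genes from other lists and of genes outside all lists in each of the 4 control and 4 transgenic libraries (points), with control 3 and transgenic 1 marked. For Sesn2, Atf5, Tef, Gba2 and Rep15 all transgenic points lie above all control points, and for Mx1, Hspa5, Arntl, Suz12 and Fam46a they lie below.

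The 2 libraries that stand apart were compared with each other as a pair that took no part in the test on 6. The log2 ratio of transgenic 1 to control 3, with 0.5 CPM added to each, had the sign found in the 6 libraries for 299 of 380 genes called higher (78.7%) and 369 of 452 called lower (81.6%). Of 11997 genes not called, 7053 (58.8%) had the same sign in both. The pair's ratios were smaller than the changes in the 6 libraries, with a median of 0.198 against 0.673 for the higher genes and -0.239 against -0.668 for the lower ones. Among the 80 members of pathway lists that passed, 72 had the same sign. Of the NRF2 targets and Mt2, some differed more in the pair than in the 6 libraries and others less. The pair's log2 ratio was 4.65 for Slc7a11, where control 3 was at 1.33 CPM, 2.97 for Abcc4 and 2.76 for Gsta3. It was 2.28 for Gclc, 2.04 for Mt2 and 1.87 for Gstm1. Smaller ratios than in the 6 libraries were seen for Aldh1a1 (0.67 against 1.39), Ugdh (0.30 against 0.91), Mgst3 (0.25 against 0.82) and Abcb6 (0.36 against 0.91), among others. For Abcc10 the ratio was -0.04 against 0.60. The genes given on either side are examples. The opposite sign was seen for Sqle, with a ratio of 0.30, and for Ascl2, with -0.59, among others. The pair is 1 library against 1, so its values have no replicate check, and genes are not independent of each other.

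**Figure D5:**
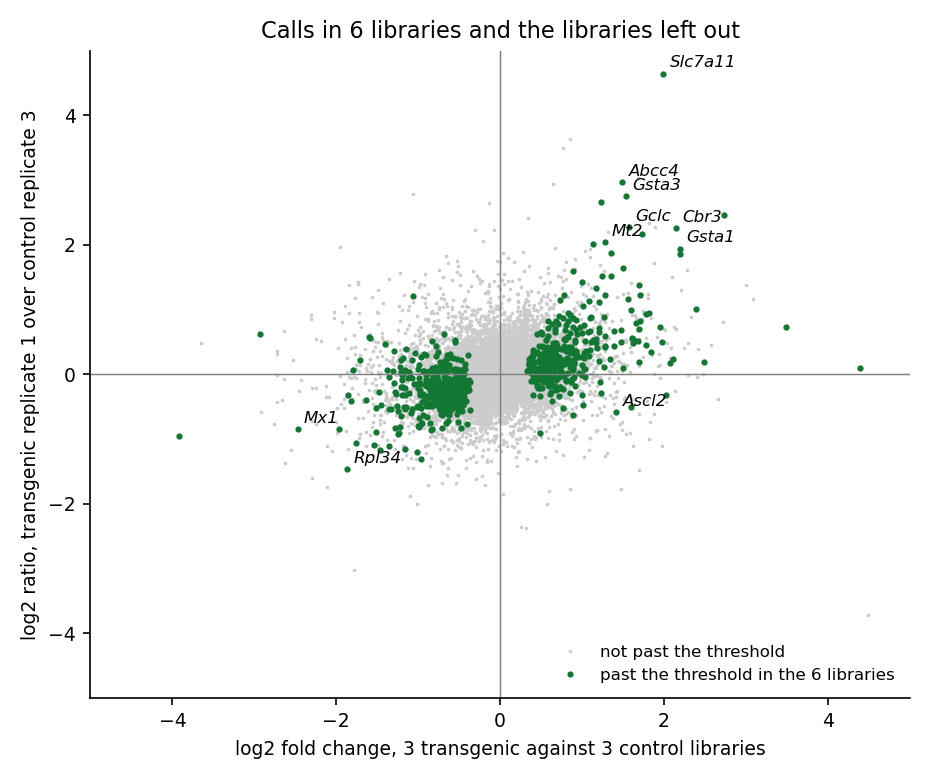
Log2 fold change in the 6 libraries (x axis) against the log2 ratio of transgenic 1 to control 3 (y axis), 1 point per gene, with genes past the threshold in the 6 libraries in colour. The sign is shared by 668 of 832 coloured genes (80.3%), and 2 genes, both past the threshold, lie outside the axes at 5 units.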

How the data were processed

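RNA of colon epithelial cells was sequenced in 8 libraries, 4 of VilCre mice and 4 of VilCre-CMVcaNrf2 mice, and untreated colon wall served as a marker check. Per the file headers, each deposited file gives, for 30383 RefSeq transcripts, the authors' expected counts (39.2% not whole), a posterior estimate of the count, TPM, FPKM and further expression values whose scale is not given (a score), used in no result. RSEM 1.2.11, FastQC and mm10 are named in the submitters' processing notes, without role. No source used here gives the aligner, strand setting or RefSeq release, so overlapping or antisense genes cannot be told apart. The authors' FPKM values were not used.

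The deposited expected counts were summed per gene symbol (23329 symbols) and rounded. Genes were tested mainly by the quasi-likelihood F test of edgeR 4.0.16 under R 4.3.3 (voom is from limma 3.58.1) on the 8 libraries alone, with TMM scaling, filterByExpr and Benjamini-Hochberg adjustment over all genes tested, at a threshold of 0.05. Each SE is the size of the log2 fold change over the square root of F. The test on 6 libraries and the covariate, tool, scaling, filter, transcript, block and leave-one-out alternatives were listed from the start. However, the 2 libraries left out of the test on 6 were picked by their values in these same data. The 2-level term, the other tools on 6 libraries, the 5 libraries and the held-out pair were chosen after seeing the data. So were the list members named because they passed in 6 libraries. DESeq2 1.42.0 was an alternative. Library pairs of a group differed by more than sampling noise (chi-square per gene of 10.5 or more, for genes with 20 counts or more in both). Each was counted as 1 replicate, though this does not show that they came from separate animals. Only the edgeR test on 8 libraries was tried on simulated counts with known changes, without a factor that sets some libraries apart. The other fits were not tried in this way.

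Named genes are Nfe2l2, Keap1 and 9 fixed targets, up to 4 members per list with the smallest unadjusted p, and 12 genes in each direction outside the lists with separate groups and a mean of at least 5 CPM. The members and all 23 pathway and 14 marker lists were chosen with earlier results of these data known. Some list members that passed are counted but not reported here by name. Gene positions come from the deposited files, on mm10 and counted from 1 (94.6% of exon starts equal those of GENCODE M21). Promoter windows are RefSeq's for GRCm38.p6.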

Additional observations from a re-analysis of the deposited data

Results flagged for a closer look

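Within groups of 4, a library was flagged when its gap to the nearest of the others, as a share of the group's range, exceeded Dixon's 95% critical value. Of 310 groups of values checked, 44 were flagged, and chance flags about 5% of groups. Control 3 or transgenic 1 was the flagged library in all but 4 of these, the libraries that stand apart in colonocyte markers. Values of that library are given first and the range of the other 3 of its group after it. The reasons were not tested.

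In NRF2-related genes control 3 was flagged high for Srxn1 (237 CPM against 61.2 to 84.1), Gstm1 (354 against 284 to 291), Gstm3 (91 against 33.5 to 36.3), Gsta1 (54.4 against 7.9 to 13.1), Akr1b8 (132 against 49.2 to 59.8), Ftl1 (2180 against 1030 to 1170) and Tkt (693 against 467 to 489). Conjugation genes showed it too, with Ces1f at 246 CPM against 58.9 to 79.4, Ces1g at 250 CPM against 27.5 to 42.8 and Ugt1a7c at 651 CPM against 236 to 250. It was flagged low for Mafg (20.3 CPM against 27.8 to 29.3) and for Abcc4 (11.1 CPM against 19.9 to 20.9), so not every target was higher in it.

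Transgenic 1 was flagged high for Gsta1 (210 CPM against 39.8 to 56.7), Ces1g (563 CPM against 78.7 to 137), Ces1d (155 CPM against 81.1 to 93.8), Psmb5 (135 CPM against 99.7 to 102), Psma3 (100 CPM against 54.5 to 60.9), Rsad2 (12.7 CPM against 6.85 to 7.67) and Slc6a6 (427 CPM against 368 to 377). Nox1 was low in it, at 16.5 CPM against 41.5 to 45.6.

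Irf9 was flagged in both, at 33.8 CPM in control 3 against 20.2 to 21.8 and at 56.5 CPM in transgenic 1 against 23.6 to 28.6. Other genes high in control 3 were B2m (513 CPM against 181 to 237), H2-D1 (938 CPM against 415 to 467) and Slc39a5 (124 CPM against 48.3 to 53.2). Low in control 3 were Pcna (101 CPM against 139 to 141), Slc12a2 (322 CPM against 722 to 768), Trp53inp1 (38.1 CPM against 53.8 to 54.8) and Capn7 (60.2 CPM against 74.7 to 76.6).

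The 4 flags on other libraries were Ccna2 in transgenic 4 (82.2 CPM against 61.8 to 64.5), Slc7a5 in transgenic 4 (91.3 CPM against 55.6 to 59.9), Zscan29 in transgenic 4 (38 CPM against 40.6 in each of the others) and Fam46a in control 2 (143 CPM against 128 to 130).

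List scores flagged in control 3 were those of glutathione transferases (6.43 against 5.64 to 5.67), the thioredoxin system (7.82 against 6.98 to 7.07), heme and iron (6.91 against 5.88 to 6.01), drug conjugation (8.02 against 5.67 to 6.03), the proteasome (6.97 against 6.58 to 6.62), interferon-stimulated genes (4.36 against 3.06 to 3.24), transporters (6.17 against 5.78 to 5.84) and epithelial markers (10.3 against 9.39 to 9.49). Scores of crypt stem cell genes (4.67 against 5.67 to 5.78) and of immediate early and heat shock genes (5.65 against 7.33 to 7.47) were low there. The thioredoxin score was also flagged in transgenic 1 (8.12 against 7.33 to 7.43).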

How the results depend on the processing

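The count of genes past the threshold, 0 in edgeR with 8 libraries, became 149 with the endothelial score and 534 with the absorptive colonocyte score as a covariate, 835 without control 3 and transgenic 1, 603 with the 2-level term, 215 with DESeq2 and 1292 with voom. DESeq2 and voom on the 6 libraries gave 1483 and 1428, and edgeR without transgenic 3 as well gave 1925. Leaving out 1 library at a time gave 0 to 24 (24 without control 3, 1 without transgenic 1). The count stayed 0 with RLE scaling, library totals, a robust prior, either filter, the posterior count, single transcripts and the replicate block, with 842 to 1502 genes at an unadjusted p below 0.05.

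The Nfe2l2 difference of 0.869 was 0.866 in the 6 libraries (exact permutation p = 0.1, the smallest possible there) and 0.869 with the replicate block (exact permutation p = 0.125, again the smallest possible), and 0.781 to 1 when single libraries were left out. Genes with separate groups, 358 higher and 581 lower, were 1938 and 2160 in the 6 libraries, 3054 and 3156 without transgenic 3 as well, and ranged from 413 to 1423 and from 585 to 1567 without 1 library (1423 and 1567 without control 3, 978 and 1104 without transgenic 1, 885 lower without transgenic 3). Same-numbered libraries correlated at -0.627, 0.0717, -0.441 and 0.316 in their deviations, against 0.808 for control 3 with transgenic 1. Since what sets these 2 libraries apart enters the values, they do not show whether the numbers pair the libraries.

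Signs reversed for few named genes, none of which passed in the test of 8 or 6 libraries. Abcc2 was at -0.414 with the block, -0.248 with the colonocyte score, -0.377 with voom and -0.651 without transgenic 1. Over the fits that leave out 1 library it ran from there to 1.6. In those fits Ugt1a7c ran from -0.142 to 0.83, H2-D1 from -0.0529 to 0.559 and Slc39a5 from -0.00902 to 0.796, each lowest without transgenic 1 and highest without control 3, and Rsad2 from 0.1 to 0.453. Irf9 was at -0.743 with its main transcript, and Rsad2 at -0.0118 in the 6 libraries and -0.00387 there with DESeq2. The cause was not tested. Of the other values of single genes, 2235 kept their direction and side of the threshold, and 691 came to pass it in a setting with more calls. List medians kept their sign under RLE and library totals for the pathway lists, with all-gene medians of 0.0147 and -0.0115. Depth limits the low genes most, such as Abcc2, Aox1, Cxcl2 and Nos2.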

Other observations

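Some further genes, outside the rule for named genes, were picked after their values were seen and by no fixed rule. Lgals6, a galectin gene closely related to Lgals4, was at 124, 199, 206 and 180.3 CPM in controls and 154, 1.51, 0 and 1.59 CPM in transgenic libraries. Transgenic 1 thus had the level of the controls while the other 3 transgenic libraries were at or near 0. No fold or test is given, since the gene passed the filter on low counts only through the libraries where it is high. Lgals4 was at 2210, 2442, 6308 and 2266 CPM in controls and 6099, 3391, 2791 and 3215 CPM in transgenic libraries. Reads can be shared between the 2 genes, and the presence of the gene in each animal was not measured.

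Il1f9, which encodes the epithelial cytokine IL-36 gamma, was at 0, 0.0812, 0.415 and 0.137 CPM in controls and 7.04, 2.75, 7.45 and 2.32 CPM in transgenic libraries. It was near 0 in every control and above 2 CPM in every transgenic library. Here too no fold or test is given, for the same reason. Lpin1, a phosphatidate phosphatase of lipid synthesis, was at 83.8, 65.8, 33.7 and 59.8 CPM in controls and 17.9, 19.4, 30.8 and 23.2 CPM in transgenic libraries and fell by 1.51 ± 0.20 (edgeR, adjusted p = 0.00919). St3gal6, a sialyltransferase, was at 297, 236, 102 and 225 CPM in controls and 71, 115, 122 and 100 CPM in transgenic libraries and fell by 1.17 ± 0.13 (edgeR, adjusted p = 0.00858). Ugcg, which makes glucosylceramide, the lipid that Gba2 cleaves, was at 104, 104, 119 and 104 CPM in controls and 87.1, 59.1, 57.9 and 63 CPM in transgenic libraries and fell by 0.80 ± 0.10 (edgeR, adjusted p = 0.00907). Ihh, the hedgehog ligand of colon epithelium, was at 38, 32.8, 86 and 48 CPM in controls and 116, 103, 80.5 and 105 CPM in transgenic libraries and rose by 1.28 ± 0.17 (edgeR, adjusted p = 0.00919). Nop2, a methyltransferase of ribosomal RNA, was at 38.8, 34.6, 27.9 and 37.1 CPM in controls and 40.2, 71.3, 88 and 67.2 CPM in transgenic libraries, with the groups apart, and rose by 1.03 ± 0.14 (edgeR, adjusted p = 0.00919). Cd274, which encodes PD-L1, was at 5.44, 8.61, 2.83 and 11.1 CPM in controls and 4.41, 16.1, 33.7 and 26.2 CPM in transgenic libraries and rose by 1.61 ± 0.33 (edgeR, adjusted p = 0.0277), with both libraries that stand apart lowest in their groups.

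By chromosome, the share of tested autosomal genes that passed in the 6 libraries ran from 3.53% on chromosome 13 to 9.29% on chromosome 12.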
